A study of Solanum lycopersicum with 15 samples.

Results

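Tomato (Solanum lycopersicum) roots that were given iron back were compared with roots left without it, and neither had nitrogen. The comparison used 3 libraries of polyadenylated RNA a side: control roots (-Fe-N), with no iron and no nitrogen, and roots resupplied with iron alone (+Fe-N). Of the 34075 genes in the deposited table, 18889 reached at least 1 FPKM (fragments mapped to a gene, scaled to its transcript length and to the size of the library) in 3 or more of the series' 15 libraries and were tested. The other 9 libraries came from roots given iron together with nitrate, ammonium or urea, again 3 each. The labels give the tissue as root and say nothing of cultivar, plant age, time after resupply, or whether replicates were separate plants, so p-values measure only the spread between these libraries, which may be technical. The files pair no identifier with a gene name, and 0 of them matched the reference table used here, so genes are given by identifier and no marker could be used to check the tissue.

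Tomato takes up iron by acidifying the soil around the root, reducing ferric iron at the root surface and importing the ferrous form. Genes for these steps are switched on when iron is short, under the control of basic helix-loop-helix transcription factors, and are held back when iron is plentiful, when ferritin stores the surplus. Nitrogen supply bears on this system because nitrate, ammonium and urea change the pH around the root in different ways. None of the genes described here could be assigned to these roles.

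The libraries of this comparison spanned most of the series' range in FPKM total. Control totals were 549346, 546848 and 559374, and iron-alone totals 587391, 551746 and 581036, so iron-alone replicates 1 and 3 exceeded every control library. Over the 15 libraries, the FPKM total ran from 546848 to 589451, and the number of genes with 1 FPKM or more from 17357 to 18082. Judged by the steps between their lowest values, the 6 libraries compared had estimated depths of 1 to 1.39 times that of control replicate 1. Iron-alone replicate 1 was the deepest by this estimate, while the number of reads itself stays unknown. These depths are rough, because the search allowed only a limited range of ratios and 1.39 lies near its upper end. Apart from control replicate 1, only 32.7% (iron-alone replicate 2) to 62.8% (control replicate 3) of the ratios lay at the chosen step. Across genes, control libraries correlated with each other at 0.974 to 0.975. Iron-alone replicate 3 correlated with the other iron-alone libraries at 0.967 and 0.96, and with the control libraries at 0.962 to 0.964, so its profile was about as close to control roots as to iron-alone replicate 2. The total counts of called genes and some single-gene changes are therefore also given without it. Most other results, such as shares, sums and medians, are given only with it.

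Iron alone changed 1209 genes, 6.4% of those tested, at an adjusted p under 0.05 (limma with Benjamini-Hochberg adjustment, as for every adjusted p here). Of these, 561 rose (2.97% of the tested genes) and 648 fell (3.43%). Scaling every library to the same FPKM total moved that split to 426 and 901. Most changes were small. The median size was 0.68 on the log2(FPKM + 1) scale among genes that rose and 0.744 among those that fell, against 0.163 over all tested genes. A change of at least 2-fold was reached by 133 rising genes (0.704%) and 181 falling genes (0.958%), of at least 4-fold by 16 and 18, and of at least 8-fold by 4 and 3. The adjusted p was under 0.001 for 12 genes that rose and 34 that fell.

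The called genes separated the libraries almost without exception. In 560 of the 561 rising genes every iron-alone library lay above every control library, and in 644 of the 648 falling genes every one lay below. Such separation was found in 26.1% of all tested genes, called or not, and the call rule itself favours it.

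**Figure D1:**
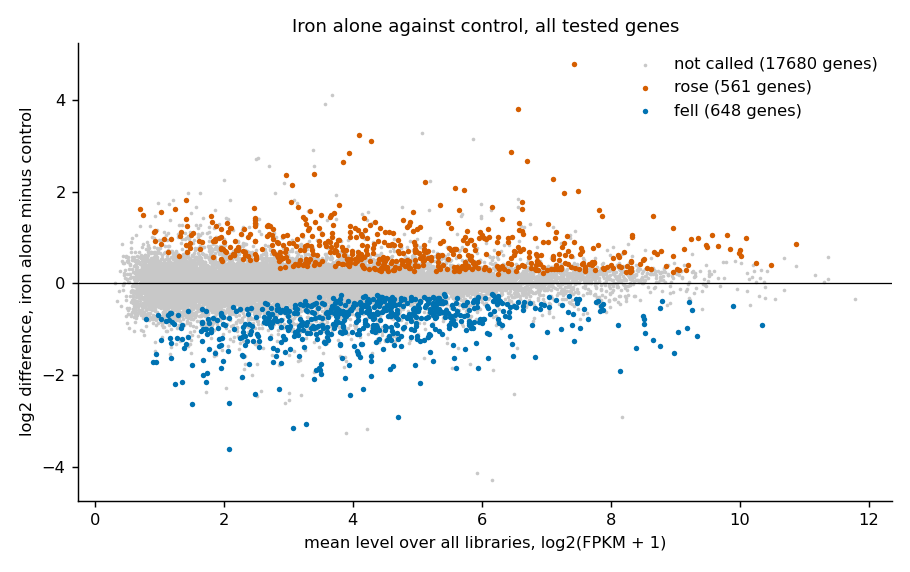
Each point is a tested gene, placed by its mean level over all 15 libraries (x axis, log2 of FPKM + 1) and its log2 difference between iron alone and control (y axis, 3 libraries each). The 561 genes that rose are orange, the 648 that fell blue and the genes not called grey, and most called genes lie within 1 log2 unit of 0.

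Iron-alone replicate 3 showed the response at a smaller size. Of the 133 genes that rose by at least 2-fold, replicate 3 was the lowest iron-alone library in 75 (56.4%), against 29 each for replicates 1 and 2. Of the 181 that fell by at least 2-fold, it was the highest in 134 (74.0%), against 33 for replicate 1 and 14 for replicate 2. Over all tested genes it was the iron-alone library nearest to the control mean in 40.7%. Without it, 1381 genes were called, 552 rising and 829 falling, and the changes of 2-fold or more numbered 176 upwards and 306 downwards. Without this library the second of these counts was over 1.5 times larger. Each other library lowered the count when left out: it was 752, 552 and 534 without replicate 1, 2 or 3 of the control and 540 and 588 without replicate 1 or 2 of iron alone. With nitrate and ammonium, too, replicate 3 was nearest to control. With nitrate its median rising gene stood 0.11 above the control mean on the log2 scale, against 0.34 and 0.33 in replicates 1 and 2. With ammonium it stood at 0.31 against 0.41 and 0.46. In both regimes the median falling gene was also nearest to control in replicate 3. With urea, replicate 3 was not nearest. Whether replicate number marks a shared difference was not tested.

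Among called genes, the one that rose most was Solyc01g104820.ITAG4.0 on chromosome 1, which also had the smallest adjusted p of all tested genes. It stood at 6.95, 4.13 and 6.41 FPKM in the control libraries and at 246.8, 198 and 128.3 FPKM in the iron-alone libraries. All 3 iron-alone libraries lay far above the controls, and replicate 3 was the lowest of them. The means were 5.83 ± 1.49 and 191 ± 59.6 FPKM (SD, n = 3), a 32.8-fold ratio of means, with a log2 change of 4.79 and a standard error of 0.23 (adjusted p = 3.42e-07).

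Its level was also high wherever iron came with nitrogen. The libraries with nitrate stood at 176.7, 244.6 and 199.7 FPKM, those with ammonium at 304, 207.6 and 289.1 FPKM, and those with urea at 161.6, 201.6 and 184.5 FPKM. Every library with iron therefore exceeded every library without it by a wide margin, whatever the nitrogen. Against iron alone the log2 differences were 0.15, 0.51 and -0.02 with nitrate, ammonium and urea, each with a standard error of 0.23, and none passed the test (adjusted p = 0.734, 0.168 and 0.965).

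This gene was the third of 4 neighbours by identifier that all rose, with 0 other identifiers between them. The run was singled out after its values had been seen. The first member went from 11.5 ± 2.21 to 49.9 ± 6.66 FPKM (n = 3; log2 change 2.04, adjusted p = 2.05e-05). The second went from 14.4 ± 2.91 to 94.9 ± 5.89 FPKM (n = 3; log2 change 2.66, adjusted p = 5.07e-07), and the fourth from 18.9 ± 3.25 to 48 ± 5.95 FPKM (n = 3; log2 change 1.31, adjusted p = 0.000348). Unlike the third, these members had narrow iron-alone values: the second stood at 98.3, 88.1 and 98.2 FPKM, with replicate 3 level with replicate 1. The tested genes on either side of the run differed by 0.14 and -0.04 on the log2 scale and were not called (adjusted p = 0.645 and 0.915), although the next one before them was (log2 change 1.45, adjusted p = 0.0189).

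Added up, the 4 genes went from 50.6 ± 7.42 FPKM in control roots to 383.9 ± 60.2 with iron alone (n = 3). With nitrate they summed to 431.5 ± 49.3 FPKM, with ammonium to 547.3 ± 59.6 and with urea to 432.7 ± 51.6 (n = 3). Against iron alone, 2 of the 4 were called higher with ammonium (6.29% of all tested genes were), 1 with urea (5.75%) and 0 with nitrate (4.58%), where the log2 differences of the members lay between 0.13 and 0.26. These comparisons share the iron-alone libraries. All 4 members were called as rising in each of the 16 alternative analyses. Whether reads of similar neighbouring genes were shared between them was not tested.

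**Figure D2:**
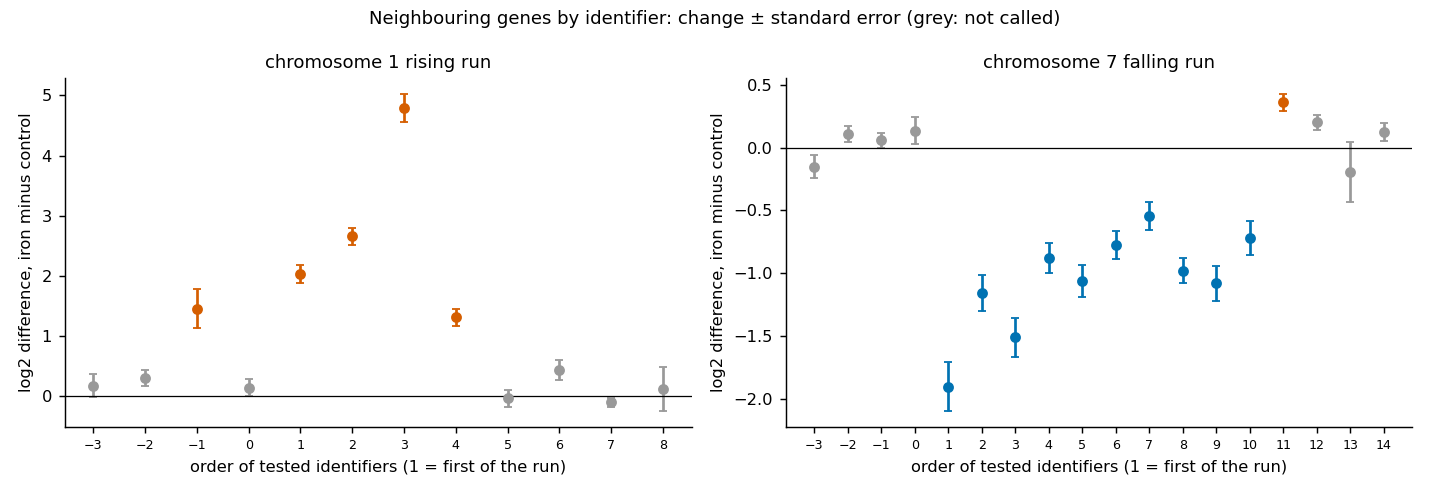
Log2 difference between iron alone and control (y axis, with standard error) for tested genes in the order of their identifiers (x axis, 1 is the first gene of the run), with 4 tested genes on either side. The 4 neighbours on chromosome 1 rose by 1.31 to 4.79, and the 10 neighbours on chromosome 7 had log2 changes of -0.54 to -1.90, while most flanking genes lie near 0.

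Solyc12g088970.1.ITAG4.0 on chromosome 12 had the next largest rise among the called genes but a wide spread on both sides. It stood at 0.247, 8.03 and 16.3 FPKM in control replicates 1, 2 and 3 and at 153.1, 98.8 and 32.7 FPKM in the iron-alone libraries. The groups did not overlap, which the choice of named genes required, but iron-alone replicate 3 was only about 2 times the highest control library. The means were 8.2 ± 8.04 and 94.9 ± 60.3 FPKM (SD, n = 3), with a log2 change of 3.79 and a standard error of 0.84 (adjusted p = 0.0184). By adjusted p it ranked 550 among all tested genes. Without iron-alone replicate 3 the log2 change was 4.42 (adjusted p = 0.0121), and without control replicate 1, the library at 0.247 FPKM, it was 2.68 (adjusted p = 0.0445). Over single libraries left out, and with replicate 3 left out on both sides, it ran from 2.68 to 5.21. Leaving out replicate 1 or 2 of iron alone ended the call (adjusted p = 0.0812 and 0.0665), as did a fit with only these 6 libraries (adjusted p = 0.0937); the 16 alternatives spanned adjusted p of 0.00876 to 0.0937.

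In the nitrogen regimes it remained high and variable. It reached 63.4, 265.2 and 121.6 FPKM with nitrate, 148, 48.4 and 109.4 FPKM with ammonium, and 119.3, 115.1 and 102.9 FPKM with urea. Urea gave the narrowest group, and all 9 values exceeded the highest control value. Differences from iron alone were between 0.22 and 0.67 on the log2 scale and did not pass the test (adjusted p = 0.669, 0.901 and 0.735 for nitrate, ammonium and urea).

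The genes named for the largest falls were direct neighbours on chromosome 3. The control libraries held Solyc03g026270.3.ITAG4.0 at 12.5, 23.6 and 8.64 FPKM, and the iron-alone libraries listed it at 0, 0 and 0.784. It was thus under 1 FPKM in every iron-alone library (log2 change -3.60, standard error 0.32, adjusted p = 0.000142), and its size depends on the pseudocount, being -6.06 with 0.1 in place of 1. With nitrogen added the listed values were 0.504, 0.486 and 1.36 FPKM for nitrate, 0, 0.116 and 0 FPKM for ammonium, and 0.11, 0 and 0.109 FPKM for urea. All 12 libraries with iron were thus at or under 1.36 FPKM, and all 3 without iron at 8.64 FPKM or more.

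The next identifier, Solyc03g026280.3.ITAG4.0, had control values of 14.9, 33.3 and 34.7 FPKM and iron-alone values of 0.52, 1.18 and 7.28 FPKM. Replicate 3 was again the iron-alone library nearest to the controls. The log2 change was -3.15 with a standard error of 0.74 (means 27.6 ± 11 and 3.0 ± 3.73 FPKM, n = 3; adjusted p = 0.0237). Without iron-alone replicate 3 it was -3.88 (adjusted p = 0.00818), and without iron-alone replicate 1 it was -2.66. Of 16 alternatives, 5 ended the call: a smaller pseudocount of 0.1 (adjusted p = 0.0955), leaving out replicate 2 or 3 of the control (adjusted p = 0.0839 and 0.089), and leaving out replicate 1 or 2 of iron alone (adjusted p = 0.102 and 0.0852). All 16 gave adjusted p of 0.00216 to 0.102.

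This gene too stayed low in the nitrogen regimes, at 2.2, 0.541 and 2.99 FPKM with nitrate, 0, 1.11 and 3.07 FPKM with ammonium and 0.375, 1.47 and 6.92 FPKM with urea. All 9 values lay below the lowest control library. The tested genes next to the pair differed by -0.18 and -0.09 on the log2 scale and were not called (adjusted p = 0.645 and 0.741).

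**Figure D3:**
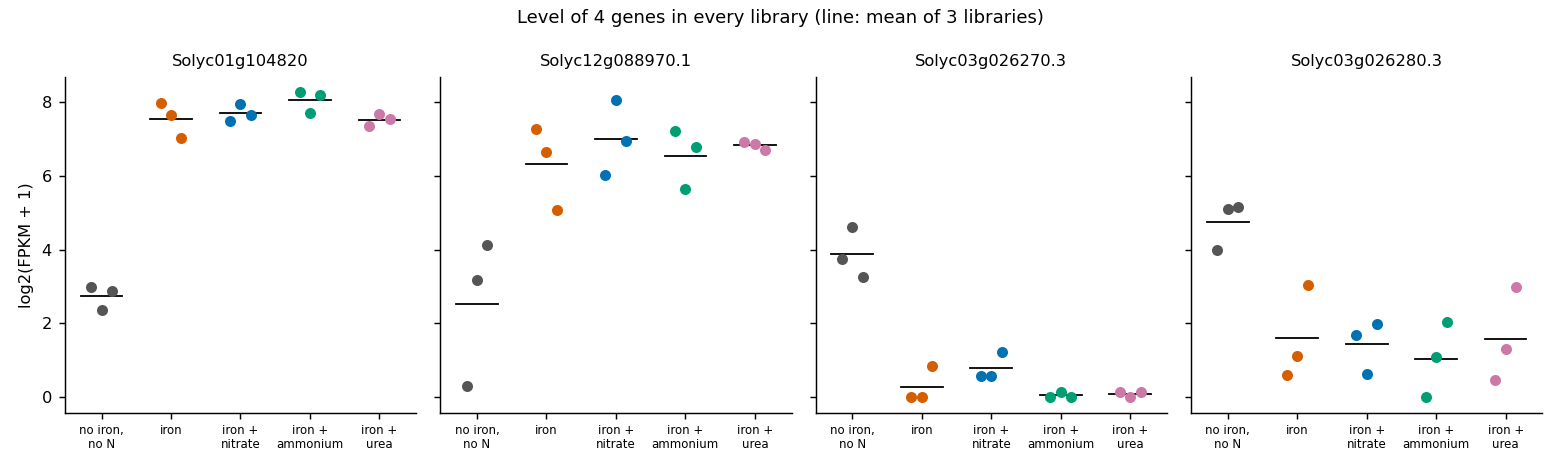
Level of the 2 rising and 2 falling genes in all 15 libraries (y axis, log2 of FPKM + 1), by nutrient regime (x axis), with a line at the mean of the 3 libraries. The libraries without iron stand apart from all 12 libraries with iron in each gene, and the iron-alone points of Solyc12g088970.1 spread from 32.7 to 153.1 FPKM. The genes were chosen for control and iron-alone libraries that do not overlap, so that part of the separation was fixed by the choice.

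The longest run of falling neighbours lay on chromosome 7, from Solyc07g008980.ITAG4.0 to Solyc07g009100.ITAG4.0, and was likewise singled out after its values had been seen. All 10 tested genes between these identifiers fell, with 3 untested identifiers among them, and the next tested gene after the run rose (log2 change 0.36, adjusted p = 0.00742). They were abundant genes, at means of 390.3 to 879.4 FPKM in control roots, and fell to 132.9 to 416 FPKM. The log2 changes ran from -0.54 to -1.90, with adjusted p between 0.000261 and 0.0135.

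The first gene of the run fell most. Its control values were 577.6, 497.9 and 414.6 FPKM and its iron-alone values 129.7, 109.1 and 159.8 FPKM, so that the lowest control was over 2 times the highest iron-alone library. Its means were 496.7 ± 81.5 and 132.9 ± 25.5 FPKM (SD, n = 3), a log2 change of -1.90 (standard error 0.19) with an adjusted p of 0.000273. The third went from 783.3, 700.8 and 783.4 FPKM to 270.4, 224 and 306.2 FPKM (log2 change -1.51 ± 0.16, standard error; adjusted p = 0.000311). The eighth had the smallest standard error of the run, 0.10, which reflects the spread in all 15 libraries and not only in those compared. Its values went from 907.9, 735.6 and 823.7 FPKM to 437.8, 421.2 and 389.1 FPKM (log2 change -0.98, adjusted p = 0.000261). Here iron-alone replicate 3 was the lowest library, not the one nearest to the controls.

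Summed, the 10 genes stood at 6358, 5635 and 5972 FPKM in the control libraries, 1.03% to 1.16% of all FPKM. With iron alone they stood at 3077, 2621 and 3003 FPKM, or 0.475% to 0.524%. The groups were far apart relative to their spread, at 5988 ± 361.8 and 2900 ± 244.7 FPKM (SD, n = 3). Between 9 and 10 of the members were called as falling in each of the 16 alternatives.

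With nitrogen added, the values of this run lay on average between those of control and iron alone. The sums were 4921 ± 436.4 FPKM with nitrate, 4148 ± 405.5 with ammonium and 4184 ± 559.2 with urea (n = 3). Against iron alone, all 10 members were called higher with nitrate (4.58% of all tested genes were), 6 with ammonium (6.29%) and 9 with urea (5.75%). Against control, 3 were called lower with nitrate (8.65% of all tested genes), 8 with ammonium (10.9%) and 7 with urea (17.6%). The run was chosen for low values in the iron-alone libraries and high values in the control libraries. These comparisons share those libraries, so the counts against iron alone and against control are both only a description. The last gene of the run stood at 390.3 ± 47.4 FPKM in control roots, 235.9 ± 15 with iron alone and 496.6 ± 55.1 with nitrate (n = 3), and did not pass the test between nitrate and control (log2 difference 0.35, adjusted p = 0.107).

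**Figure D4:**
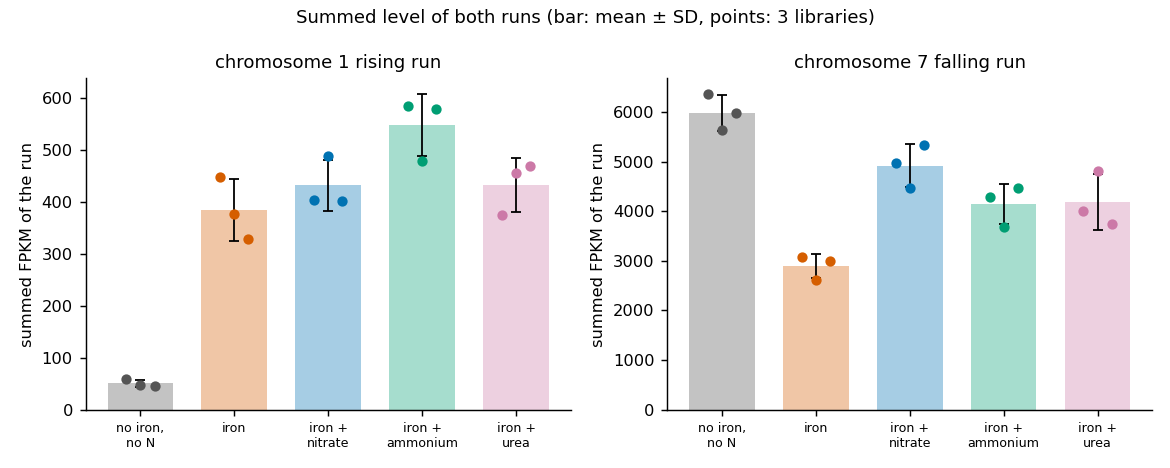
FPKM summed over the 4 rising neighbours on chromosome 1 (left) and the 10 falling neighbours on chromosome 7 (right), by nutrient regime; bars are means with SD, points the 3 libraries. The left sums rise from 50.6 to 383.9 FPKM with iron alone and are no lower on average with nitrogen, while the right sums fall from 5988 to 2900 FPKM and are between these values with each nitrogen form. Both runs were chosen by their values in the control and iron-alone libraries.

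Neighbours called in one direction were found elsewhere too. Taking tested genes in the order of their identifiers, 184 of the called genes (15.2%) lay in 80 runs of at least 2, and 50 (4.14%) in 13 runs of at least 3. Of these 13 runs, 5 rose and 8 fell. Besides those described, the longest were a run of 5 falling genes on chromosome 1 and a run of 4 falling genes on chromosome 3. Over all tested genes 2.97% rose and 3.43% fell, so some called genes would be neighbours in any order. How many runs that would give was not tested.

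As a group, the genes called for iron held a changed share of the measured RNA. The 561 rising genes made up 6.68% ± 0.291 of all FPKM in control roots and 10.2% ± 0.641 with iron alone (SD, n = 3). The 648 falling genes made up 6.95% ± 0.204 and 3.86% ± 0.297. These shares describe the choice of the genes and are no test.

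The same genes were then followed in the 9 libraries outside this comparison. The rising genes made up 8.41% ± 0.695 of FPKM with nitrate, 9.56% ± 0.596 with ammonium and 10.3% ± 0.381 with urea (n = 3). The falling genes made up 5.68% ± 0.554, 4.6% ± 0.348 and 4.15% ± 0.175. By these means, both shares lay nearest to control with nitrate. The median rising gene was 0.67, 0.69 and 0.60 above the control mean in the iron-alone libraries on the log2 scale. It was 0.34, 0.33 and 0.11 above it with nitrate, 0.41, 0.46 and 0.31 with ammonium, and 0.37, 0.39 and 0.40 with urea. The median falling gene was at -0.75, -0.86 and -0.60 with iron alone, at -0.50, -0.64 and -0.42 with nitrate, at -0.58, -0.66 and -0.49 with ammonium, and at -0.81, -0.71 and -0.72 with urea. Over all tested genes the medians of the 15 libraries lay between -0.10 and 0.05. All of these differences share the control libraries that chose the genes. The iron-alone libraries chose them too, and that choice favours larger medians with iron alone than in the nitrogen regimes. Differences between regimes in these medians were not tested.

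**Figure D5:**
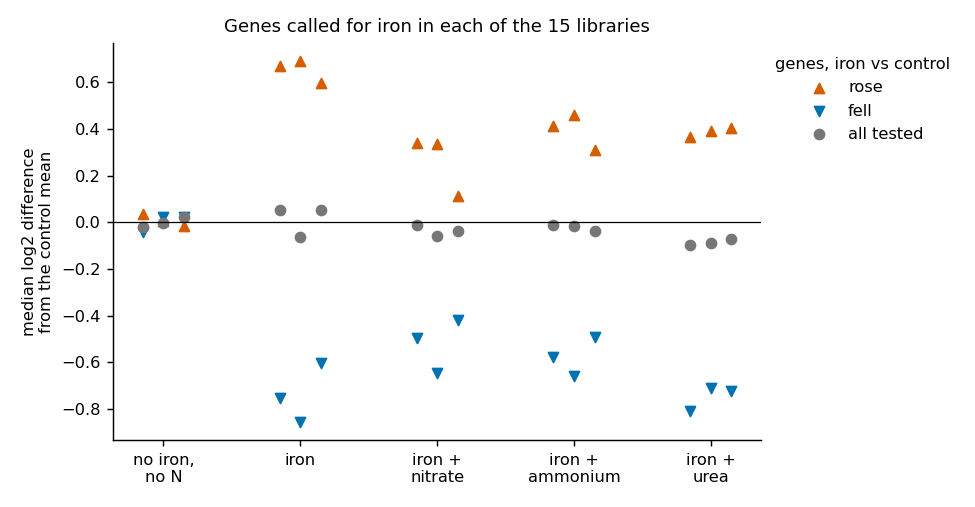
Median log2 difference from the mean of the control libraries (y axis) for the genes that rose, the genes that fell and all tested genes, in each of the 15 libraries (x axis, by regime). The rising genes stand at 0.60 to 0.69 with iron alone and at 0.11 to 0.46 with nitrogen added, the falling genes at -0.86 to -0.60 and -0.81 to -0.42. The control and iron-alone libraries chose these genes, which favours larger differences with iron alone.

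Abundant genes were called more often than rare ones. With the tested genes split by mean level into 4 bins of equal size, 2.62% were called in the lowest bin, up to 3.47 FPKM, and 4.43%, 7.08% and 11.5% in the bins above it. The median size of a called change went the other way, from 0.98 in the lowest bin to 0.60 in the highest, on a scale that understates the change of low genes. Of the 1073 genes with a mean of at least 100 FPKM, 124 rose and 50 fell, so 16.2% were called. Over all tested genes 6.4% were called, with 2.97% rising and 3.43% falling. That balance depended on scaling: it was 95 and 80 with equal FPKM totals, and turned to 81 rising and 100 falling after quantile normalization. It also rested on single libraries in size: the counts were 78 and 38, 53 and 26, and 46 and 29 without replicate 1, 2 or 3 of the control, and 43 and 26, and 83 and 25, without replicate 1 or 2 of iron alone. Without iron-alone replicate 3 the counts were 117 and 62, near those with all libraries.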

How the data were processed

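RNA from tomato roots was measured in 5 nutrient regimes with 3 libraries each. The authors deposited 1 table, which gives FPKM for 34075 genes in 15 libraries. The aligner was HISAT2, per the submitters' processing notes. Its version, the genome build and the FPKM tool are not given in the sources used here. FPKM corrects for length and depth but not for RNA composition. Columns were assigned by library name, 0 columns were left without a sample, and 0 pairs of columns held identical values.

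The filter (1 FPKM or more in 3 or more libraries) left 55.4% of genes. In R 4.3.3, limma 3.58.1 fitted a mean per regime to log2(FPKM + 1) of all 15 libraries, with a mean-variance trend, and p-values are two-sided with Benjamini-Hochberg adjustment over all tested genes. With 3 libraries a side an exact permutation test cannot go below p = 0.1, so none is given. Relative depth came from ratios between values of genes with a very low mean.

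Named genes are the 2 rising and 2 falling called genes with the largest change, a mean of at least 5 FPKM in a group and libraries that do not overlap. The rule allowed more genes and 37 lists of genes by name, iron uptake among them; these could not be matched, because the reference table (assembly SLM_r2.1) matched 0 identifiers. The comparison, rule and lists were chosen with earlier results of these data known.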

Additional observations from a re-analysis of the deposited data

How the results depend on the processing

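The signs of all 1209 calls were kept under every alternative in which the gene was measured (1031 of them with a mean of at least 5 FPKM), but the counts were not. For most alternatives the signs were fixed in advance. The groups did not overlap in 560 of the 561 rising and 644 of the 648 falling genes. For these, only rescaling the libraries could have changed a sign. With only the 6 libraries compared, 708 genes were called, 329 rising and 379 falling, and 50.5% of the reported calls were among them. Over single libraries left out, and with replicate 3 left out on both sides (chosen after seeing the data), 534 to 1381 genes were called, 209 to 552 rising and 284 to 829 falling, with 77 to 176 rising and 104 to 306 falling by at least 2-fold. More genes rose than fell only without iron-alone replicate 2 (304 and 284). Equal FPKM totals gave 426 rising and 901 falling genes. Same-numbered control and iron-alone libraries deviated together only weakly, at r = 0.057, 0.015 and 0.064. Differently numbered pairs gave -0.075 to 0.028, and for each control replicate the same-numbered library gave the highest r. Whether replicate numbers mark a shared effect was not tested. The replicate block gave 1263 calls. Solyc01g104820.ITAG4.0 kept its call in all 16 alternatives (adjusted p 1.95e-07 to 0.00313), and Solyc03g026270.3.ITAG4.0 in the 15 that measured it (7.1e-05 to 0.011). The cause of these shifts was not tested. No counting interval can be given, since the number of reads is unknown.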

Other observations

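Genes called for iron lay on every chromosome. Named in the identifiers, chromosomes 1 to 12 had between 3.97% and 8.15% of their tested genes called, against 6.4% overall. Chromosome 11 had the lowest share, with 27 rising and 23 falling of 1258 tested genes, and chromosome 7 the highest, with 52 rising and 64 falling of 1424. The run of 10 falling neighbours is part of the chromosome 7 count.

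Few genes went from listed values of 0 throughout one group to measured values throughout the other. Of 5 tested genes at 0 in all 3 control libraries and above 0 in all 3 iron-alone libraries, 3 were called by limma, at 0.561 to 4.1 FPKM with iron. Of 4 with the opposite pattern, 1 was called, at 4.37 to 5.89 FPKM in control roots. Over all tested genes 6.4% were called, and libraries did not overlap in 26.1%; both patterns pick genes whose libraries do not overlap, so nothing is read from these counts. An exact 0 in such a file can be a failed estimate.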
